A study of Mus musculus with 2 samples.

Results

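The hyaluronan matrix of the vessel wall was examined through 9 of the 31053 genes in the count tables: the synthases *Has1* and *Has2*, the large proteoglycans *Acan* and *Vcan*, the link proteins *Hapln1*, *Hapln3* and *Hapln4*, the hyaluronan-binding protein *Tnfaip6* and the receptor *Cd44*. The genes were chosen by name, and all 9 were found in the tables. The data were single-cell RNA-seq counts of 2 libraries, called biological replicates 1 and 2, from primary vascular smooth muscle cells (VSMCs) of the aorta of wild type mice, kept for 5 days in culture as a model of phenotypic modulation. There was 1 condition, so the comparisons are between classes of cells within these libraries. The mice carried no transgene, their age is not given in the sources used here, and cell preparations pooled the thoracic aortae of several mice. The aortae had been digested with papain and then with collagenase and hyaluronidase before culture, and the cells were detached with trypsin before capture.

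Hyaluronan is a long unbranched sugar chain that is made at the plasma membrane by hyaluronan synthases and extruded into the extracellular space. Aggrecan (*Acan*) and versican (*Vcan*) bind it through their N-terminal domain, link proteins clamp that bond, and the chondroitin sulfate chains of both core proteins hold water in the matrix. *Tnfaip6* encodes TSG-6, which transfers heavy chains of the inter-alpha-trypsin inhibitors to hyaluronan, and *Cd44* encodes the main cell surface receptor for hyaluronan. Versican is the large proteoglycan usually described in the arterial intima and media, whereas aggrecan is best known from cartilage.

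A barcode was taken as a cell if it had 300 genes or more, 3000 UMIs or more (unique molecular identifiers, each counting 1 captured transcript) and less than 20% of its UMIs from mitochondrial genes. This left 4866 and 6824 cells with a median of 22234.5 and 16310 UMIs, from libraries of 127949633 and 132561822 UMIs, and 9 cell barcodes occurred in both libraries. Cycling cells were those with at least 10 UMIs of 15 cell cycle genes per 10000 UMIs (1677 and 2080 cells). The other cells were split by *Myh11*, the smooth muscle myosin heavy chain, into Myh11-high cells with at least 5 *Myh11* UMIs (311 and 542 cells), Myh11-low cells with at most 1 (2653 and 3929 cells) and an intermediate class with 2 to 4 (225 and 273 cells). For the label of VSMCs, 9 contractile markers were read, and all had UMIs in every class. Their summed level was 24443 and 25849 CPM (UMIs of a gene in a class per 1000000 UMIs of that class) in Myh11-high cells and 6173 and 3319 CPM in Myh11-low cells. As *Myh11* set the classes, this difference is no independent check of the label. Cells with at least 5 UMIs of 5 endothelial markers numbered 105 and 145, and there the contractile markers summed to 2975 and 2069 CPM. All 9 had UMIs there too, so their presence alone does not set VSMCs apart. Free RNA was estimated to make up 3.84% and 3.05% of the UMIs of a cell.

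On the GRCm38 build, 4 of the members form pairs of neighbours. *Acan* (ENSMUSG00000030607, chr7:79053483-79115099, plus strand) and *Hapln3* (chr7:79115102-79131018, minus strand) meet tail to tail with 2 bases between them. *Vcan* (ENSMUSG00000021614, chr13:89655312-89742509, minus strand) and *Hapln1* (chr13:89539796-89611652, plus strand) also point towards each other, 43659 bases apart and with no annotated gene between them. *Cd44* and *Tnfaip6* are both on chromosome 2, *Has1* is on chromosome 17, *Has2* on chromosome 15 and *Hapln4* on chromosome 8. Antisense genes overlap *Vcan* and *Has2*, and the sources used here do not state whether strand was used in counting.

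The 250 bases before the RefSeq start of 4 members are given, for *Acan* and *Vcan* because they differed between cell classes, for *Has1* because it shared cells with *Vcan*, and for *Tnfaip6* as a contrast with another motif content (GRCm38.p6, written 5′ to 3′ on the strand of the gene). Capitals mark the GC box and the MCAT motif in *Acan*, the GC box in *Vcan*, the cAMP response element in *Has1*, and the AP-1 motif, the GC box and the MCAT motif in *Tnfaip6*, as matched on either strand.
*Acan*, chr7:79052976-79053225, plus strand: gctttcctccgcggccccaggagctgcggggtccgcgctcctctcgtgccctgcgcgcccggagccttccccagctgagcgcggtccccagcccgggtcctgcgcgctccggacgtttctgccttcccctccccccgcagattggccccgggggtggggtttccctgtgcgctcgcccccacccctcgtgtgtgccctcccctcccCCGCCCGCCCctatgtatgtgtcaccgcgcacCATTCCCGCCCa
*Vcan*, chr13:89742513-89742762, minus strand: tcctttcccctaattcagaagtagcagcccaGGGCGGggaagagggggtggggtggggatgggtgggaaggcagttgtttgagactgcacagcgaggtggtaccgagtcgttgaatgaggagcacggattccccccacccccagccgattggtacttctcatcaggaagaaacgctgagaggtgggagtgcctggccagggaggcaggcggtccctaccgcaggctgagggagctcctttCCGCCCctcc
*Has1*, chr17:17855189-17855438, minus strand: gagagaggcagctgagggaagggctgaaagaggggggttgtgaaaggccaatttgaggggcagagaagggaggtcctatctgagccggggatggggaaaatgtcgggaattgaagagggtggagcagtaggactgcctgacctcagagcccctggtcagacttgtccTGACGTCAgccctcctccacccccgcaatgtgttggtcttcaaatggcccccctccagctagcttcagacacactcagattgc
*Tnfaip6*, chr2:52037863-52038112, plus strand: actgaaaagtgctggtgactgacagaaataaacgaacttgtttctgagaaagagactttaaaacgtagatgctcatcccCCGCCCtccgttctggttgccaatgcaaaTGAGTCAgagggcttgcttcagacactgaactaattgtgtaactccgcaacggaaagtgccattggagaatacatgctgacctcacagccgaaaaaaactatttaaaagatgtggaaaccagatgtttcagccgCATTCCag

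RefSeq windows were found for 7 of the 9 members. In all, 10 motifs were searched on both strands of all 32851 windows of this length. The *Has1* window was the only one of the 7 with the cAMP response element TGACGTCA, which 1.55% of all windows held, and the *Tnfaip6* window the only one with the AP-1 motif TGANTCA, which 6.75% held. The GC box GGGCGG was in the windows of *Acan*, *Vcan* and *Tnfaip6* and in 32.7% of all windows, and the *Acan* window was 74.4% G or C against 44.4% for *Tnfaip6*. The CArG box, the serum response factor motif of many contractile genes, was in none of the 7 windows and in 1.47% of all. The MCAT motif CATTCC was in the windows of *Acan* and *Tnfaip6* and in 12.6% of all. GGAAA was in 55.6%, CANNTG in 66.2%, TATAAA in 12.4% (*Hapln3* only among the members), GGGANTTTCC in 0.356% (no member) and the SOX motif in 25.2% (no member). These are letters in a window and no measure of binding.

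*Acan* was the member most unevenly spread over the cells, and its UMIs lay in cells that kept *Myh11*. In replicate 1 its level was 76.6 CPM in Myh11-high cells, 5.46 CPM in the intermediate class and 1.21 CPM in Myh11-low cells. In replicate 2 the 3 levels were 16.1, 5.92 and 0.660 CPM. The order was the same in both libraries, while the level in Myh11-high cells was far higher in replicate 1, so that its mean was 46.4 ± 42.8 CPM (SD, n = 2). Myh11-high cells held 53.9% and 41.6% of all *Acan* UMIs but only 6.69% and 9.09% of the UMIs of all genes.

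At least 1 *Acan* UMI was found in 84 of 311 Myh11-high cells of replicate 1 (27.0%, exact 95% interval 22.2 to 32.3%) and in 72 of 542 of replicate 2 (13.3%, 10.5 to 16.4%). In Myh11-low cells the shares were 1.06% (0.702 to 1.52%) and 0.484% (0.291 to 0.754%), against 0.668% and 0.0809% that free RNA alone would give. None of the 105 endothelial marker cells of replicate 1 had an *Acan* UMI, where the limit of 3 counts is 2.86% and the exact upper bound 3.45%. In replicate 2, 1 of 145 had one. Median depths were 14523 and 10223 UMIs in these cells, 24242 and 18931.5 in Myh11-high cells and 20072 and 14714 in Myh11-low cells. Intervals and limits cover counting error only. After thinning every cell to 3000 UMIs, the shares were 13.2% and 4.26% in Myh11-high cells and 0.285% and 0.203% in Myh11-low cells. The order of the classes was the same at equal depth.

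**Figure D1:**
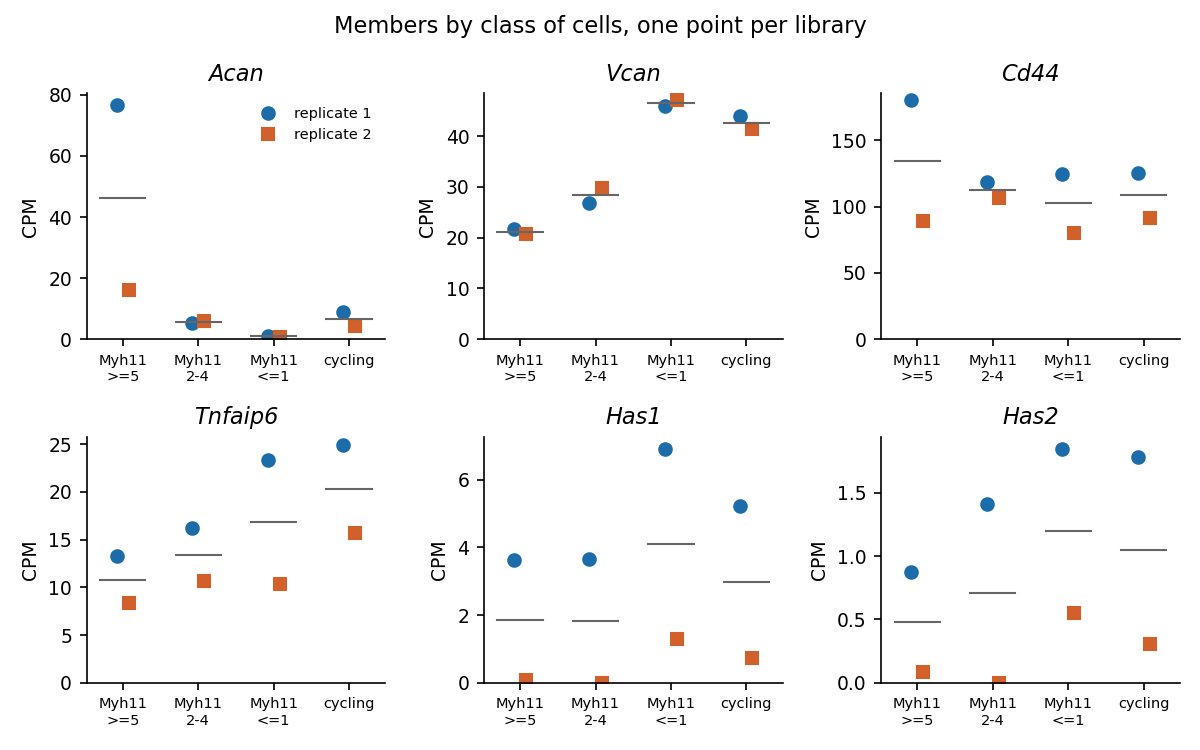
Level of 6 members in CPM (vertical axis, from 0) in 4 classes of cells (horizontal axis), with 1 point per library and a line at the mean of both. *Acan* was highest in Myh11-high cells of each library, at 76.6 and 16.1 CPM, *Vcan* lay between 20.8 and 21.6 CPM there and between 45.8 and 47.1 CPM in Myh11-low cells, and *Has1* was lower in replicate 2 than in replicate 1 in each class.

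The *Acan* level also followed the number of *Myh11* UMIs in finer steps. For cells with 0, 1, 2 to 4, 5 to 9, 10 to 19 and 20 or more *Myh11* UMIs, replicate 1 gave 1.02, 2.59, 5.46, 22.3, 82.3 and 127 CPM. Replicate 2 gave 0.614, 1.22, 5.92, 12.2, 18.5 and 20.1 CPM. Both series rose at every step, and the libraries were farthest apart at 10 or more *Myh11* UMIs. Median depth differed along these steps too, at 19990 and 14652 UMIs in cells without *Myh11* and at 30174 and 22319.5 UMIs in cells with 20 or more.

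**Figure D2:**
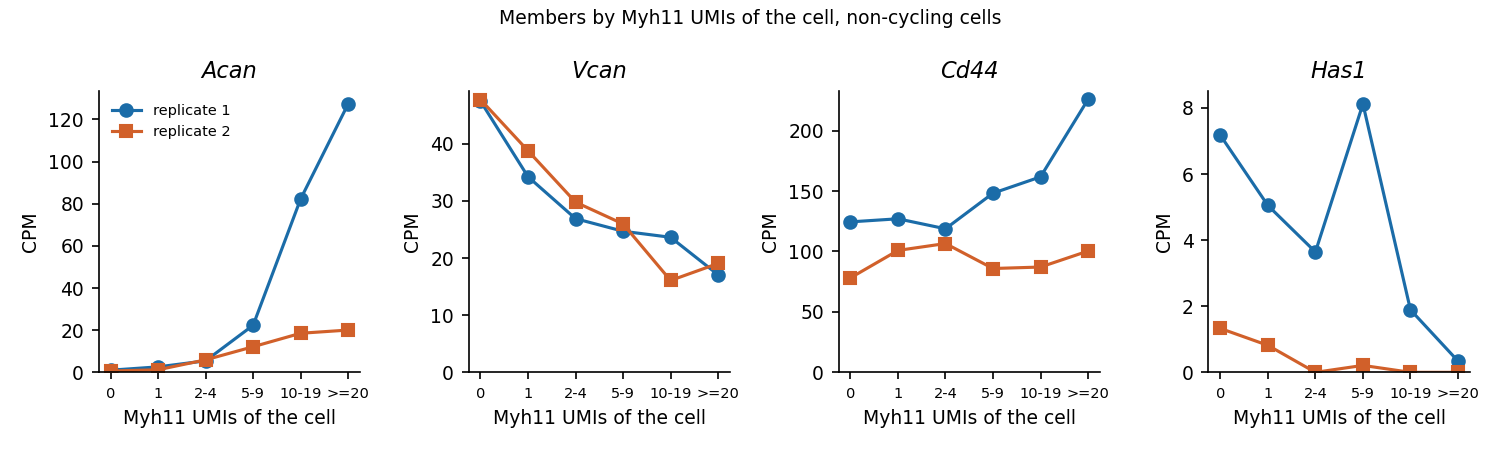
Level of *Acan*, *Vcan*, *Cd44* and *Has1* in CPM (vertical axes, from 0) by the number of *Myh11* UMIs in the cell (horizontal axis, 6 steps), for non-cycling cells of each library (points joined by lines). *Acan* rose to 127 and 20.1 CPM and *Vcan* fell from 47.5 and 47.8 CPM to 17.1 and 19.1 CPM. *Cd44* went from 124 to 226 CPM in replicate 1. In replicate 2 it went from 78.1 to 100 CPM, with its highest value, 107 CPM, at 2 to 4 *Myh11* UMIs.

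Within Myh11-high cells, *Acan* was not a low signal shared by all cells. In replicate 1, 227 cells had no *Acan* UMI, 17 had 1, 44 had 2 to 9 and 23 had 10 or more, with a maximum of 29. In replicate 2 the numbers were 470, 31, 38 and 3, with a maximum of 11. The 10 cells with the most UMIs held 37.0% and 39.8% of the class total, and the level without them was 50.2 and 9.92 CPM. Both libraries thus had a tail of *Acan*-rich cells, which was longer in replicate 1.

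**Figure D3:**
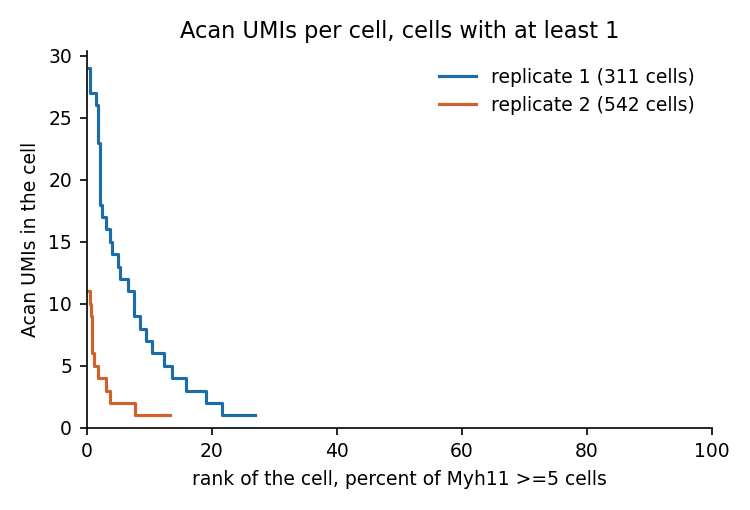
*Acan* UMIs per cell (vertical axis, from 0) for Myh11-high cells with at least 1, ranked from most to fewest, with the rank as a percentage of all Myh11-high cells of the library (horizontal axis). The line of replicate 1 starts at 29 UMIs and ends at 27.0% of cells, and that of replicate 2 starts at 11 UMIs and ends at 13.3%.

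UMIs were summed per library and class and compared with edgeR's quasi-likelihood test, with p-values adjusted by the Benjamini-Hochberg method over all 14449 genes tested. Between Myh11-low and Myh11-high cells, 213 genes passed an adjusted p of 0.05 (1.47% of those tested, 55 higher and 158 lower in Myh11-low cells). Of the 9 members, 7 passed the filter on low counts and 1 of these was called. *Vcan* was 1.04 ± 0.11 (log2, ± SE) higher in Myh11-low cells with an adjusted p of 0.0295. *Acan* was 5.71 ± 0.97 lower on the log2 scale (fitted value -5.71), but with an adjusted p of 0.0624 it did not pass. The other 5 had adjusted p-values from 0.606 to 0.999. The median log2 difference of the 7 members was 0.56, beside 0.03 for all genes tested.

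The 3 sums of a library share a culture, and a fit with the library as a block takes this pairing into account. There *Acan* passed, at a log2 difference of -5.53 ± 0.36 and an adjusted p of 0.000862, and *Vcan* kept its call at 1.04 ± 0.08 with an adjusted p of 0.00113. This fit called 3452 genes, or 23.9% of those tested, against 2 of the 7 members. The single-library log2 ratios of *Acan* were -5.98 in replicate 1 and -4.61 in replicate 2. With only 2 libraries, p-values rest on a spread estimated from all genes.

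*Vcan* ran opposite to *Acan*, and it was the member that varied least between the libraries. Its level was 21.6 and 20.8 CPM in Myh11-high cells, 26.9 and 29.8 CPM in the intermediate class, and 45.8 and 47.1 CPM in Myh11-low cells. The order of these classes was the same in both libraries, and cycling cells stood near Myh11-low cells at 43.9 and 41.3 CPM. At least 1 *Vcan* UMI was found in 32.2% and 26.6% of Myh11-high cells and in 42.7% and 37.2% of Myh11-low cells, and after thinning to 3000 UMIs in 6.06% and 5.63% against 10.9% and 11.4%. Free RNA alone would give at most 2.43% in these classes. Endothelial marker cells also held *Vcan*, at 46.0 and 24.0 CPM, and 5 endothelial markers summed to 13.5 and 4.18 CPM in Myh11-high cells against 55.9 and 52.3 CPM in Myh11-low cells. Without endothelial and macrophage marker cells the log2 difference of *Vcan* was 1.06 ± 0.11 (adjusted p = 0.0314). When cycling cells were returned to the *Myh11* classes it was 0.96 ± 0.12, and the adjusted p rose to 0.0801.

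The synthases were at low levels and differed between the libraries. *Has1* was at 3.63 CPM in Myh11-high cells, 6.91 CPM in Myh11-low cells and 5.21 CPM in cycling cells of replicate 1, and at 0.0889, 1.29 and 0.733 CPM in replicate 2. The 0.0889 CPM came from a single UMI, below the limit of 3 counts at 0.267 CPM. *Has1* was thus lower in every class of replicate 2 than in any of these classes of replicate 1. *Has1* was found in 9.39% and 1.50% of Myh11-low cells, where free RNA would give 0.245% and 0.0347%, and in 1 endothelial marker cell of each library. *Has2* was at 0.875 and 0.0889 CPM in Myh11-high cells, the latter from a single UMI, and at 1.85 and 0.553 CPM in Myh11-low cells. Both synthases had a higher value in Myh11-low than in Myh11-high cells in each library, and neither difference passed the test (log2 1.15 ± 1.60 and 1.35 ± 1.36, adjusted p = 0.770 and 0.672). With the library as a block the adjusted p-values were 0.0701 and 0.0987.

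*Cd44* was found in most cells of the *Myh11* classes. Its level was 180 and 88.9 CPM in Myh11-high cells, 125 and 79.8 CPM in Myh11-low cells and 125 and 91.6 CPM in cycling cells, so that it was higher in Myh11-high than in Myh11-low cells of each library, while the classes overlapped across libraries. In the intermediate class it was 119 and 107 CPM, below Myh11-high and Myh11-low cells in replicate 1 and above both in replicate 2. In endothelial marker cells it was 50.1 and 30.7 CPM. The shares of cells with a *Cd44* UMI were 89.1% and 69.4% in Myh11-high cells, 76.2% and 56.9% in Myh11-low cells and 27.6% and 24.8% in endothelial marker cells, and free RNA would give at most 9.37% in the *Myh11* classes. Between Myh11-low and Myh11-high cells its log2 difference was -0.48 ± 0.41 (adjusted p = 0.606, and 0.0605 with the block).

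*Tnfaip6* was at 13.3 and 8.36 CPM in Myh11-high cells, 23.4 and 10.3 CPM in Myh11-low cells and 24.9 and 15.7 CPM in cycling cells. The log2 difference between Myh11-low and Myh11-high cells was 0.56 ± 0.50 (adjusted p = 0.621). Each library gave the lowest of the 3 values in Myh11-high cells and the highest in cycling cells. The values of Myh11-low cells overlapped with those of both other classes, and Myh11-high and cycling cells were not tested against each other. A UMI was found in 25.4% and 14.0% of Myh11-high cells and in 4.76% and 2.07% of endothelial marker cells.

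Transcripts of the link proteins were close to the limit of detection. Over all 11690 cells, *Hapln1* had 37 UMIs in 29 cells, *Hapln3* 20 UMIs in 19 cells and *Hapln4* 108 UMIs in 103 cells. *Hapln1* had no UMI in the 311 Myh11-high cells of replicate 1, where the limit of 3 counts is 0.965% of cells and the exact upper bound 1.18%, and 2 UMIs in the 542 of replicate 2. *Hapln3*, the tail-to-tail neighbour of *Acan*, was found in 1 and 4 Myh11-high cells, although these cells held 613 and 181 *Acan* UMIs. *Hapln4* was tested, with 0.375 and 0.534 CPM in Myh11-high cells and 0.504 and 0.476 CPM in Myh11-low cells, and its log2 difference was -0.00395 ± 0.46 (adjusted p = 0.999). *Hapln1* and *Hapln3* were below the filter on low counts, so a difference between classes was not tested for them. *Hapln3* was at 0.125 and 0.356 CPM in Myh11-high and at 0.0168 and 0.123 CPM in Myh11-low cells, from at most 8 UMIs in a class. *Hapln1* was at 0 and 0.178 against 0.135 and 0.230 CPM. For *Hapln4* no difference was detectable at this depth.

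Cycling cells carried *Acan* where they also carried *Myh11*. Over all cycling cells the level was 9.05 and 4.28 CPM, but in the 166 and 340 cycling cells with at least 5 *Myh11* UMIs it was 71.2 and 14.0 CPM. Those cells held 397 of the 426 and 116 of the 181 *Acan* UMIs of the cycling class. In cycling cells with at most 1 *Myh11* UMI the level was 0.396 and 0.527 CPM. At 5 or more *Myh11* UMIs, cycling and non-cycling cells were close to each other in each library. Their levels were 71.2 and 76.6 CPM in replicate 1 and 14.0 and 16.1 CPM in replicate 2. At no more than 1 *Myh11* UMI they were farther apart in replicate 1, at 0.396 in cycling and 1.21 CPM in non-cycling cells. In replicate 2 these levels were 0.527 and 0.660 CPM.

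The test of cycling against Myh11-low cells called 695 genes (4.81% of 14449, 662 higher and 33 lower in cycling cells), and none of the 7 members tested. *Acan* was 2.82 ± 0.87 higher on the log2 scale (adjusted p = 0.192), and it was the member nearest to the threshold. At an unadjusted p under 0.05, 2430 genes passed, *Acan* among them. With the library as a block *Acan* passed at an adjusted p of 0.00393, when 25.7% of all genes were called, and DESeq2 also called it, with an adjusted p of 0.00518. When only cycling cells with at most 1 *Myh11* UMI were compared, an alternative chosen after the data had been seen, the log2 difference of *Acan* turned to -1.03 ± 0.93 (adjusted p = 0.730). *Vcan*, *Has1*, *Has2*, *Cd44*, *Tnfaip6* and *Hapln4* lay between -0.48 and 0.25 with adjusted p-values from 0.610 to 0.963. The median of the 7 members was -0.13, beside -0.04 for all genes tested.

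It was then asked whether other members accompany *Acan* within Myh11-high cells. Each of the 84 and 72 cells with an *Acan* UMI was paired with another from its library that had none and a UMI total within 10%. The *Vcan* level was 15.7 CPM with and 21.6 CPM without *Acan* in replicate 1, and 30.2 and 12.5 CPM in replicate 2. *Cd44* was at 248 against 147 CPM in replicate 1 and at 82.7 against 82.2 CPM in replicate 2. *Tnfaip6* was at 15.7 against 10.8 CPM in replicate 1 and at 6.56 against 9.87 CPM in replicate 2. *Vcan* and *Tnfaip6* differed in opposite directions in the libraries, and *Cd44* was nearly equal in replicate 2. The log2 differences were 0.38 ± 0.43, 0.55 ± 0.55 and 0.16 ± 0.48, and edgeR's adjusted p-values were 0.982, 0.982 and 0.996. *Acan* defined the groups, and the other 5 members were below the filter on low counts. No member was thus found to follow *Acan* at this depth.

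That test called none of 9108 genes (0.0%). At an unadjusted p under 0.05, 493 of the 9108 passed, near the share of 0.05 that would pass without any difference. DESeq2 called 21, and the fit with the library as a block called 1 (0.011%). This gene was *Crct1*, which encodes a cysteine-rich C-terminal protein. It had 351 UMIs in cells with *Acan* and 2 in matched cells without it in replicate 1, and 58 and 0 in replicate 2. Its adjusted p was 0.881 in the fit without the block and 0.0115 with it. *Crct1* was no marker of Myh11-high cells, at 47.9 and 8.72 CPM there against 10.0 and 26.4 CPM in Myh11-low cells. All cells with *Acan* were in the matched sets, and their *Crct1* UMIs fall short of these class levels in both libraries. Unmatched Myh11-high cells without *Acan* thus also held *Crct1*, and the matched cells understate its level without *Acan*.

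Cells with *Acan* also held more *Myh11*, with a median of 23 against 10 UMIs in replicate 1 and of 12 against 9 in replicate 2. In an alternative chosen after the data had been seen, cells were therefore matched on *Myh11* within 20% as well, which left 71 and 67 pairs. *Crct1* then had 346 against 11 and 58 against 0 UMIs, with an adjusted p of 0.247 in the blocked fit. *Vcan* was at 15.3 against 16.1 CPM and at 27.7 against 27.2 CPM, and *Cd44* at 247 against 186 and 74.5 against 72.7 CPM.

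The genes most like *Acan* were ranked by the log2 CPM ratio between matched cells with and without *Acan*, taking the library with the smaller ratio, among genes of at least 20 CPM in cells with *Acan*. *Crct1* ranked first, with 7.45 in replicate 1 and, with its 0 set to 3 counts, 4.27 in replicate 2. Then came *Bdh1*, a mitochondrial enzyme of ketone body metabolism, with 3.19 in replicate 1 and 2.23 in replicate 2. *P2rx1*, an ATP-gated cation channel of arterial smooth muscle, had 4.03 and 2.17. The ligand gene *Wnt16* had 1.68 and 1.64, and *Des*, the muscle intermediate filament, had 3.75 and 1.58. *Sost*, *Ano1* and *Susd5* followed, with smaller ratios of 1.40, 1.35 and 1.27. *Susd5*, which encodes a protein with a hyaluronan-binding link domain, was at 15.7 CPM without and 100 CPM with *Acan* in replicate 1 and at 25.0 and 60.4 CPM in replicate 2 (adjusted p = 0.881). Lowest by the mirrored rule were *Penk*, *Plac8*, *Gpc3* and *Man1a*, with ratios from -5.41 to -2.68. These genes are a ranking of 2 libraries. *Gpc3* was below the filter on low counts, and the others except *Crct1* did not pass with or without the block. With *Myh11* matched too, *Des* was at 135 against 70.1 CPM in replicate 1 but at 58.4 against 77.1 CPM in replicate 2. *P2rx1* was then at 46.9 against 5.20 CPM and, from 9 and 7 UMIs, at 6.57 against 5.14 CPM. *Ano1* was at 41.6 against 11.4 CPM and, from 23 and 18 UMIs, at 16.8 against 13.2 CPM. *Bdh1*, *Wnt16*, *Sost* and *Susd5* stayed higher with *Acan* in both libraries. In cells without *Acan* matched on UMIs only, *Des* was at 8.54 and 30.3 CPM and *P2rx1* at 2.70 and 2.63 CPM. Over all Myh11-high cells they were at 53.3 and 64.7 CPM and at 14.5 and 6.05 CPM.

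**Figure D4:**
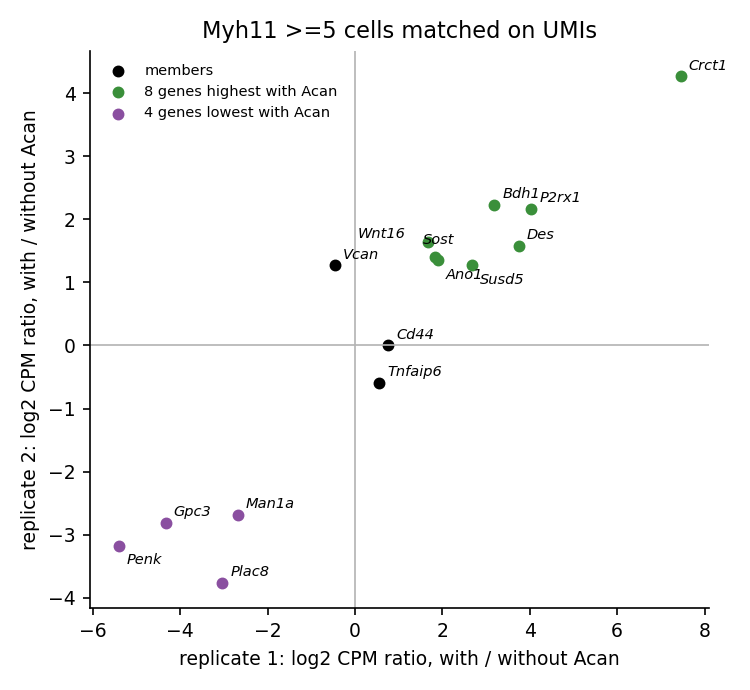
Log2 ratio of CPM between Myh11-high cells with and without *Acan*, matched on UMIs, in replicate 1 (horizontal axis) and replicate 2 (vertical axis), with 1 point per gene. The members *Vcan*, *Cd44* and *Tnfaip6* lie near an axis or in quadrants of opposite sign. The 8 top-ranked and the 4 lowest genes were picked by their ratios in both libraries. By that choice they lie at or above 1.27 and at or below -2.68 in each. The value of *Crct1* in replicate 2 was computed with its 0 set to 3 counts and is no bound on its ratio over all cells without *Acan*.

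In Myh11-low cells a different pair, *Has1* and *Vcan*, ran together, though *Vcan* was also higher beside other members. Cells with a *Has1* UMI, matched as before, had 63.6 against 40.5 CPM of *Vcan* in replicate 1 (249 pairs) and 86.5 against 32.0 CPM in replicate 2 (59 pairs). In cycling cells the levels were 59.6 against 37.2 CPM (163 pairs) and 118 against 25.1 CPM (24 pairs). *Vcan* was higher beside *Has1* in all 4 sets. The matched cells without *Has1* lay below the level of their whole class, however. That level was 45.8 and 47.1 CPM in Myh11-low cells and 43.9 and 41.3 CPM in cycling cells. The cells with *Has1* were above it in each set, by less than above their matched cells. In cycling cells of replicate 2 the 25.1 CPM came from 16 UMIs. Taken from the other side, *Has1* was at 9.12 CPM in Myh11-low cells with a *Vcan* UMI and at 4.62 CPM without one in replicate 1, and at 2.13 and 0.675 CPM in replicate 2, at median depths of 22288 against 20852 and 17065.5 against 17058.5 UMIs. *Has2* was also higher beside *Vcan*, with 60 against 27 UMIs and 19 against 8 UMIs. *Cd44* was higher in Myh11-low cells with *Has1* (171 against 123 CPM and 104 against 85.7 CPM), but in cycling cells it was at 134 against 111 CPM in replicate 1 and at 87.9 against 113 CPM in replicate 2. *Tnfaip6* was at 23.1 against 20.7 CPM and 8.20 against 8.94 CPM in Myh11-low cells. *Has1* and *Vcan* were picked out as a pair after their values were seen. As cells are not replicates and there were 2 libraries, neither this pair nor the others were tested.

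**Figure D5:**
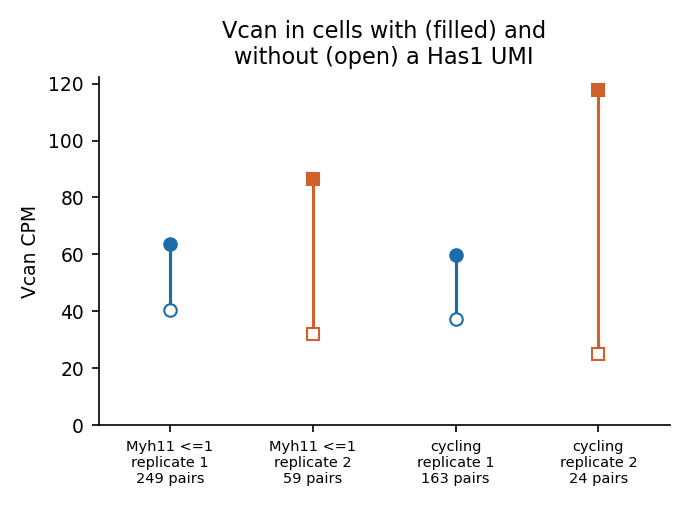
*Vcan* level in CPM (vertical axis, from 0) in cells with a *Has1* UMI (filled) and in matched cells without one (open), for Myh11-low and cycling cells of each library (horizontal axis, with the number of matched pairs). The filled point is above the open point in all 4 sets, from 59.6 against 37.2 to 118 against 25.1 CPM. The open points lie below the level of the whole class, which was 45.8 and 47.1 CPM for Myh11-low cells and 43.9 and 41.3 CPM for cycling cells.

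The enzymes and partners around the members were described by lists. Between Myh11-low and Myh11-high cells, none of 7 tested genes of hyaluronan synthesis and its precursors and none of 8 of hyaluronan breakdown was called, with medians of 0.18 and 0.12 on the log2 scale beside 0.03 for all genes. With the library as a block, 2 of the 7 and 1 of the 8 passed, shares near or below the 23.9% of all genes called in that fit. They were *Ugdh* (log2 1.11) and *Gfpt2* (1.85), which act in the supply of the UDP-sugars from which hyaluronan is made, and the hyaluronan-degrading *Cemip* (0.43).

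Of 23 genes of chondroitin sulfate assembly, 2 were higher and 1 lower in Myh11-low cells, beside 1.47% of all genes called, and 4 were higher and 2 lower with the block, beside 23.9%. The list's median was 0.07. The 4-O-sulfotransferase *Chst11* rose from 5.63 and 5.42 CPM in Myh11-high cells to 11.5 and 13.2 CPM in Myh11-low cells (log2 1.07 ± 0.15, adjusted p = 0.0469). The epimerase *Dse*, which turns chondroitin into dermatan sulfate, rose from 46.9 and 47.2 to 81.1 and 87.8 CPM (0.75 ± 0.10, 0.0415). The 6-O-sulfotransferase *Chst3* fell from 2.38 and 3.38 to 0.168 and 0.200 CPM (-4.04 ± 0.57, 0.0469). Each of the 3 genes, named because it was called, differed in the same direction in both libraries. Another 4-O-sulfotransferase of the list, *Chst12*, had a log2 difference of -0.05 (adjusted p = 0.912) and another 6-O-sulfotransferase, *Chst7*, one of -1.25 (0.214). The sulfotransferase genes *Chst14* and *Chst15* were also on the list and were not called without the block.

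Among 8 proteases and inhibitors of aggrecan and versican, *Adamts8* was lower in Myh11-low cells, at 0.0336 and 0.123 CPM against 2.75 and 4.27 CPM (log2 -5.52 ± 0.67, adjusted p = 0.0398). The 0.0336 CPM of replicate 1 was below the limit of 3 counts, which is 0.0504 CPM in that class. No other gene of this list was called without the block, where 1.47% of all genes were called. With the block, 3 were higher and 1 lower, beside 23.9% of all genes called. The main aggrecanase gene *Adamts5* was at 306 and 189 CPM in Myh11-high and at 499 and 272 CPM in Myh11-low cells, and passed with the library as a block (adjusted p = 0.00589). Among 9 other hyaluronan binders and receptors, *Itih4*, of the inter-alpha-trypsin inhibitor family, was lower in Myh11-low cells, at 0.168 and 0.107 against 10.9 and 7.83 CPM (-6.14 ± 0.55, 0.0242), and with the block 4 others were higher, beside 23.9% of all genes called. *Hmmr*, a hyaluronan receptor gene with a role at the mitotic spindle, was at 10.1 and 7.46 CPM in Myh11-low and at 312 and 291 CPM in cycling cells, and in the fit without the block it was the only gene of the pathway lists called in that comparison (5.09 ± 0.27, adjusted p = 0.000800). With the block, where 25.7% of all genes passed, 1 synthesis, 2 breakdown, 3 other binder, 6 chondroitin sulfate and 4 protease genes did. Cycling cells had been chosen by cell cycle genes. None of the 4 tested partners of the C-terminal lectin domain was called between Myh11-low and Myh11-high cells without the block. All 4 passed with it, beside 23.9% of all genes, *Fbln1*, *Fbln2* and *Fbn1* as higher and *Tnc* as lower in Myh11-low cells. *Tnc* was at 187 and 111 CPM in Myh11-high and at 45.8 and 21.4 CPM in Myh11-low cells (adjusted p = 0.0881, and 0.00106 with the block).

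Since *Acan* is known from cartilage, 15 chondrocyte genes other than *Acan* were compared in the same way. None of the 10 that passed the low-count filter was called between Myh11-low and Myh11-high cells, and their median was 1.20 on the log2 scale, beside 0.03 for all genes and -5.71 for *Acan*. *Sox9*, the regulator of cartilage differentiation, was at 15.9 and 51.0 CPM in Myh11-high and at 40.1 and 101 CPM in Myh11-low cells. *Col2a1*, the cartilage collagen, was at 1.13 and 2.13 against 2.79 and 31.6 CPM. In the blocked fit, where 23.9% of all genes were called, 6 of the 10 were higher in Myh11-low cells and 1, *Sox6*, was lower. Within Myh11-high cells *Sox9* was at 16.1 CPM with and 11.2 CPM without *Acan* in replicate 1 and at 56.4 and 52.6 CPM in replicate 2, and none of the 5 genes tested there was called. The collagen gene *Col11a1* had a log2 difference of -2.43 (edgeR's adjusted p = 0.928) in that comparison, but the libraries disagreed. It was at 7.62 CPM with and 75.9 CPM without *Acan* in replicate 1 and at 7.87 and 5.26 CPM in replicate 2. The fitted differences of *Comp* and *Sox5* were -2.15 and -1.30, and those of *Sox9* and *Sox6* were 0.20 and 0.94.

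No gene of the endothelial, macrophage, Schwann, mesothelial, adventitial fibroblast or modulated VSMC marker lists was called between Myh11-low and Myh11-high cells without the block. With the block, which called 23.9% of all genes, 5 of 5 endothelial and 5 of 5 tested adventitial fibroblast markers were higher in Myh11-low cells. So were 2 of 6 modulated VSMC markers and 1 of 2 tested Schwann markers. In the same fit 1 modulated VSMC and 1 of 2 tested mesothelial markers were lower, and no macrophage marker was called. Adventitial fibroblast markers summed to 23.1 and 20.1 CPM in Myh11-high cells and to 86.6 and 71.4 CPM in Myh11-low cells. Macrophage markers summed to 6.13 and 3.65 against 16.0 and 9.84 CPM. Without the block, which called 1.47% of all genes, 5 of 9 contractile markers were lower in Myh11-low cells, where *Myh11* itself had set the classes. The part of these other cell types in the differences of the members was not tested beyond the values without endothelial and macrophage marker cells.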

How the data were processed

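The authors prepared 2 libraries of cultured aortic VSMCs with the 10x Genomics 3′ v3 chemistry, and the deposited values are UMI counts per gene and barcode, not normalized and with no cells selected. Counts were made with Cell Ranger on mm10 per the submitters' processing notes, which name version 3.0.2. The matrix headers name 3.0.2 for replicate 1 and 3.1.0 for replicate 2. Because reads come from the 3′ end, levels were compared between classes and not between genes. The members, the lists and the cuts were chosen with earlier results of these data known.

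Cells were filtered, classed and summed per library as the report states, giving 6 sums for the classes and 4 for cells with and without *Acan*. The sums were tested with edgeR 4.0.16 in R 4.3.3 (TMM, filterByExpr, quasi-likelihood F test, adjusted p from 3 separate Benjamini-Hochberg corrections, threshold 0.05), with the SE taken as the log2 difference over the root of F. DESeq2 1.42.0 was an alternative. Labels call the libraries biological replicates without saying which mice they came from, so p-values without the block measure the spread between these 2 libraries. The blocked fit takes out the shift that the sums of a library share. Its p-values measure how far the differences within a library varied between the 2 libraries. Sums of the same library deviated together from their class means (r of 0.552, 0.577 and 0.779 over genes for the classes, and 0.225 for cells with and without *Acan*), and they share a culture, so the library number was used as a pairing block in an alternative. On simulated data the test recovered 61, 62 and 75% of 100 genes changed 4-fold and 4, 5 and 7% of 100 changed 2-fold, for the class comparison, cycling cells and the *Acan* comparison in that order. It also called 7, 3 and 12 genes that had not been changed, in the same order. The simulated sums were drawn independently, without the shared deviation of a library, and the fit with the block was not simulated. Doublets were not called, and the deepest 5% of cells were left out in an alternative. Free RNA was read from barcodes with 1 to 100 UMIs, scaled by 5 endothelial markers in cells with fewer than 5 UMIs of these markers. Any such UMIs that these cells made themselves would raise the estimate. Named in the text are all members, up to 4 called genes of each list with the largest differences, and the 8 genes highest and 4 lowest with *Acan* by the ranking given. Other genes named with values were chosen after these were seen. Coordinates are from GENCODE M21. Promoter windows are from RefSeq.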

Additional observations from a re-analysis of the deposited data

How the results depend on the processing

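The count of genes called between Myh11-low and Myh11-high cells rested most on the fit. It was 213, and became 1404 with DESeq2, 3452 with the replicate block, 453 without a filter on low counts, 796 at 10 or more against 0 *Myh11* UMIs, 1036 with *Myh11* per 10000 UMIs and 77 with cycling cells kept. The other settings gave 199 to 259. Of the members, 1 was called, 2 with DESeq2, without a filter, with the block, with either *Myh11* cut and with cells thinned to 3000 UMIs, and 0 with cycling cells kept. *Vcan* was the first and *Acan* the added one. Between cycling and Myh11-low cells 695 genes became 1391 with DESeq2, 3710 with the block and 2904 with the block and only cycling cells of at most 1 *Myh11* UMI, and members called went from 0 to 1 with DESeq2 and with the block. With against without *Acan*, the 0 genes called became 21 with DESeq2, 412 without a filter and 1 with the block, and 0 in 10 other settings.

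The direction turned in few settings. *Hapln4* between Myh11-low and Myh11-high cells was 0.0263 without a filter, 0.83 and 1.10 with the *Myh11* cuts, 0.21 without endothelial and macrophage marker cells and 0.22 without the deepest 5% of cells, with single-library ratios from -0.17 to 0.43. *Acan* in cycling cells of at most 1 *Myh11* UMI was -1.03, and -1.14 with the block, and *Vcan* was 0.0144 and 0.0137. With against without *Acan* and with *Myh11* matched, *Vcan* was -0.0258, and -0.0359 with the block. Both of these settings were added after the data had been seen. With cells matched on UMIs only, the single-library ratios of *Vcan* were -0.46 to 1.27 and those of *Tnfaip6* -0.59 to 0.54. The cause of these changes was not tested. The block changed no other member's call. Keeping cycling cells in the classes was not run for cycling against Myh11-low cells, since both would share cells. Without 1 library no test could be made.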

Other observations

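Values outside the comparisons concern the free RNA. In barcodes with 1 to 100 UMIs, *Acan* made up 7.79 CPM in replicate 1 and 1.60 CPM in replicate 2, from 30 and 7 UMIs, and *Vcan* 24.9 and 21.7 CPM. *Cd44* was at 101 and 64.8 CPM and *Tnfaip6* at 18.7 and 10.5 CPM there. The libraries thus differed in the free RNA in the same direction as in the cells for *Acan*, *Cd44* and *Tnfaip6*, and little for *Vcan*.

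*Has2* was also compared beside *Tnfaip6*. In Myh11-low cells matched on UMIs, *Has2* had 61 UMIs beside *Tnfaip6* and 22 without it in replicate 1, and 4 and 4 in replicate 2. In cycling cells it had 48 and 25 UMIs in replicate 1 and 4 and 1 in replicate 2. None of these differences was tested.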
